A study of Homo sapiens with 5 samples.

Results

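The comparison set EX527-treated co-culture against monoculture of Ishikawa, an established cell line from a human endometrial adenocarcinoma of endometrioid type. Its members are 3 of the 5 RNA-seq libraries of the series: EX527 co-culture replicates 1 and 2 and the single monoculture library, chosen by their labels. In EX527 co-culture the cancer cells shared medium for 3 days with differentiated adipocytes across a membrane with 0.4 µm pores, and EX527 was present at a dose that the labels do not give. In co-culture without EX527, whose 2 libraries are given here as side values, the cells had the same 3 days with adipocytes. In monoculture the cells grew alone and had no EX527.

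The design sets limits on what the comparison can separate. EX527 and adipocytes are both present on one side and both absent on the other, so their effects cannot be told apart here, and no library came from monoculture with EX527. Each difference of an EX527 library is taken from the same monoculture library (n = 1), whose own spread is unknown. The labels do not say that replicates came from separate cultures, so a p-value here reflects only how far the sequenced samples spread, and that spread may be technical. In such bulk libraries, fewer cells of a type and less RNA per cell cannot be told apart.

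EX527 inhibits SIRT1, a deacetylase that uses NAD as co-substrate and removes acetyl groups from histones and from transcription factors and cofactors, among them p53, FOXO proteins and PGC-1alpha. Through these targets SIRT1 is linked to stress responses, lipid metabolism and the cell cycle. Adipocytes release fatty acids and adipokines that reach cancer cells through shared medium, and fat tissue is a known risk context for endometrial cancer.

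Libraries held 45653845 to 52269963 counted reads, so that 3 reads, taken as the floor of detection, correspond to 0.0529 to 0.0691 CPM (counted reads per 1e6 reads of the library, scaled by TMM). PCR duplicates are no separate molecules, so the floor accounts for error of counting alone. Markers of the labelled cell type were present in all 5 libraries: EPCAM, an epithelial surface protein, was at 245 and 203 CPM in EX527 co-culture, 414 and 423 CPM in co-culture and 268 CPM in monoculture, and PAX8, a Müllerian transcription factor, at 321 and 793, 1201 and 1177 and 638 CPM in the same order. EX527 co-culture replicate 1 stood apart: 33325 genes had 10 reads or more in it, against 26022 to 27103 in the other 4 libraries, and 2.66% of its reads fell in lincRNA genes, which held 1.36% to 1.49% of reads elsewhere. Genes whose log2 CPM averaged 3 or more over the 3 libraries are called well-read below. At these genes the log2 difference from one EX527 library to the other had an SD of 0.64, and from one co-culture library to the other an SD of 0.13. Results are therefore given for each EX527 library by itself, which shows each with and without replicate 1.

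SIRT1 mRNA (GRCh38, chromosome 10, 67884656 to 67918390) stood at 26.2 and 29.7 CPM in EX527 co-culture and 30.3 and 32.9 CPM in co-culture, against 42.7 CPM in monoculture. Both EX527 libraries lay below monoculture, by -0.70 and -0.52 on the log2 scale. The fitted log2 fold change was -0.61 (SE 0.24, edgeR adjusted p = 0.614). EX527 acts on the SIRT1 protein, so this level is no check of the treatment.

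Of 57992 genes 34658 passed a filter on low counts. Among them 3174 were at least 2-fold higher than monoculture in both EX527 libraries (9.16%), 758 were at least 2-fold lower in both (2.19%), and 1119 were 2-fold apart in opposite directions (3.23%). These counts rest mostly on genes with few reads: 2648 of the 3174 had a mean log2 CPM under 0. Because the smallest group holds 1 library, a gene could pass the filter through 1 library alone. EX527 replicate 1 had the most genes with 10 reads or more (33325), so it could bring in genes that were low elsewhere. The shares over all genes tested, here and beside the lists below, therefore depend in part on the filter. Over the 13750 well-read genes, 48 were 2-fold higher in both libraries (0.349%), 186 were 2-fold lower in both (1.35%) and 4 were opposite (0.0291%). Among these 13750 genes replicate 1 alone had 297 genes 2-fold higher and 2128 lower, and replicate 2 alone had 245 higher and 297 lower. The median difference over all genes tested was 0.12 on the log2 scale (0.14 in replicate 1, 0.03 in replicate 2), and over well-read genes it was -0.21 (-0.37 and -0.05). Genes with a mean log2 CPM under 0 had medians of 1.62 in replicate 1 and 0.09 in replicate 2. The medians were -0.49 and -0.14 at a mean of 5 to 7, and -0.52 and -0.23 at 7 and above. Medians of lists of well-read genes below are to be read beside these values.

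edgeR's quasi-likelihood test called no gene at an adjusted p of 0.05 (0 of 34658, smallest adjusted p = 0.614, 2555 genes at an unadjusted p under 0.05), and limma-voom called 0 (2034 unadjusted). DESeq2's Wald test called 75 genes of the 19875 to which it gave an adjusted p, 25 higher (0.126%) and 50 lower (0.252%). Of these 75, 24 and 50 were 2-fold higher or lower in both EX527 libraries, and 61 were well-read. Calls and 2-fold classes rest on the same EX527 and monoculture libraries, so their overlap is no independent support. The spread came from 2 residual degrees of freedom, and leaving out either EX527 library, so that the co-culture pair alone set it, gave 9927 calls without replicate 1 and 21330 without replicate 2. With all 5 libraries no gene thus passed edgeR's or limma-voom's test, genes that passed DESeq2's are counted below, and differences are described by their size in each library.

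**Figure D1:**
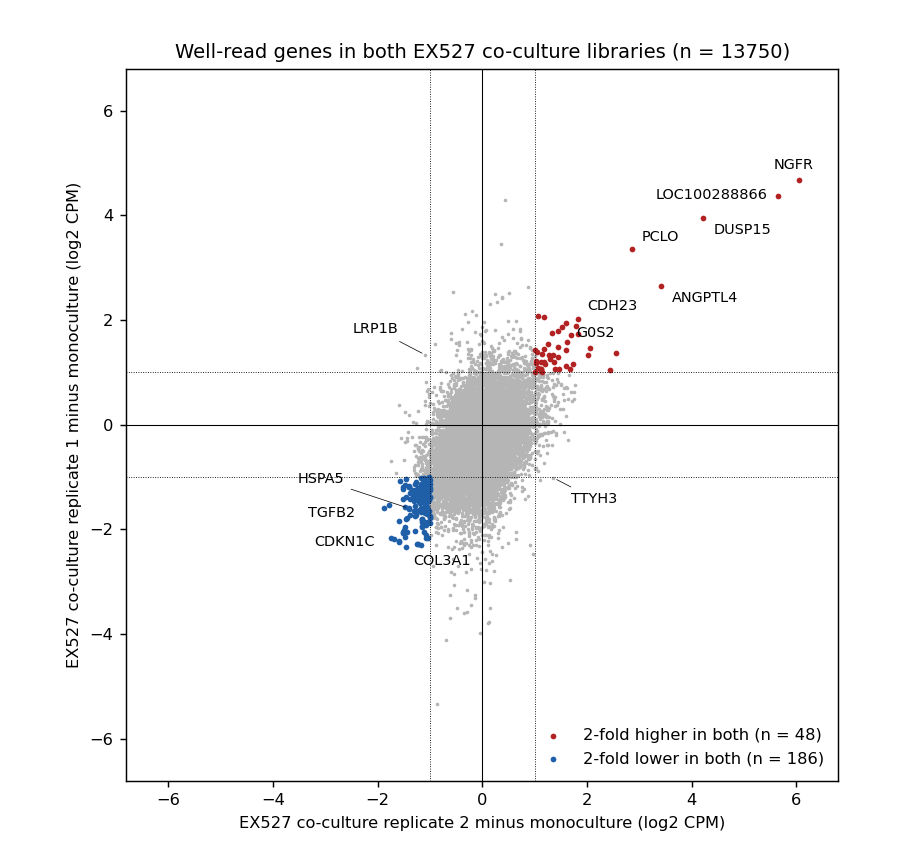
Log2 CPM difference from monoculture of the 13750 well-read genes in EX527 co-culture replicate 2 (horizontal axis) and replicate 1 (vertical axis), with dotted lines at 2-fold. The 48 genes 2-fold higher in both libraries are red, the 186 genes 2-fold lower in both are blue, and NGFR, its antisense RNA, DUSP15, PCLO and ANGPTL4 lie far from the rest at the upper right.

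The plot of both differences shows a cloud that is wider along replicate 1, with Pearson's r = 0.43 across the 13750 genes, a description only, since genes are not independent and both differences share the monoculture library. Both differences were negative in 44.3% of well-read genes and positive in 18.5%, and in 27.1% and 33.7% of all genes tested. The red points ran to a mean log2 difference of 5.36 with a median of 1.39, and 40 of the 48 were protein-coding. The blue points reached -1.95 with a median of -1.28, and 168 of the 186 were protein-coding.

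Among genes higher in both libraries, those with the largest shared difference included a receptor, a phosphatase and a synaptic scaffold gene. NGFR, the low-affinity neurotrophin receptor p75 (GRCh38, chromosome 17, 49495293 to 49515008), stood at 39.8 and 103 CPM in EX527 co-culture and 0.809 and 0.882 CPM in co-culture, against 1.52 CPM in monoculture. It was thus high in both EX527 libraries, with replicate 2 above replicate 1, and low in the other 3. Its log2 fold change was 5.54 (SE 0.87, edgeR adjusted p = 0.614). An antisense RNA whose exons overlap NGFR, LOC100288866, followed the same pattern at 39.99 and 97 CPM in EX527 co-culture, 1.89 and 1.74 CPM in co-culture and 1.89 CPM in monoculture. The kit is not described as marking strand, so reads of both genes cannot be told apart and the level of each is uncertain.

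DUSP15, a dual-specificity protein phosphatase (chromosome 20, 31847637 to 31870664, GRCh38), was at 41.9 and 50.5 CPM in EX527 co-culture, 3.46 and 2.81 CPM in co-culture and 2.67 CPM in monoculture. PCLO, a large scaffold protein of the presynaptic active zone, had 71.3 and 50.4 CPM in EX527 co-culture, 12.1 and 13 CPM in co-culture and 6.89 CPM in monoculture. Both were well above monoculture in each EX527 library, with log2 fold changes of 4.11 (SE 0.37) and 3.14 (SE 0.37). NTRK2, the receptor tyrosine kinase for brain-derived neurotrophic factor, had 12.8 and 12 CPM in EX527 co-culture, 1.75 and 2.24 CPM in co-culture and 3.43 CPM in monoculture. NTRK2 and NGFR are both neurotrophin receptors, and both were higher than monoculture in each EX527 library.

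Other genes of this group served adhesion, calcium and cyclic nucleotide signalling and the membrane skeleton. CDH23, a cadherin of hair cell tip links, was at 17.9 and 15.6 CPM in EX527 co-culture, 3.39 and 3.04 CPM in co-culture and 4.38 CPM in monoculture. CAMK2B, a subunit of calcium/calmodulin-dependent kinase II, was at 12.5 and 13.3, 7.95 and 7.78 and 3.73 CPM in the same order, and its exons overlap YKT6 on the opposite strand. PDE4C, a phosphodiesterase that breaks down cyclic AMP, was at 11.7 and 17.7 CPM in EX527 co-culture, 2.99 and 3.37 CPM in co-culture and 4.22 CPM in monoculture. Its overlapping antisense RNA LOC102725254 was also higher in both EX527 libraries (9.3 and 14.9 CPM, against 3.66 CPM in monoculture), which leaves the source of these reads uncertain. SPTBN4, a beta spectrin of axon initial segments, was at 18.2 and 17.8 CPM in EX527 co-culture, 3.78 and 3.2 CPM in co-culture and 6.47 CPM in monoculture.

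DCXR, an enzyme that reduces L-xylulose, was at 78.4 and 79.7 CPM in EX527 co-culture, 53.7 and 47.5 CPM in co-culture and 26.1 CPM in monoculture, so that both EX527 libraries lay within 2 CPM of each other. SLC16A14, a member of the monocarboxylate transporter family, was at 22.4 and 25.3 CPM in EX527 co-culture, 11.6 and 12.4 CPM in co-culture and 8.36 CPM in monoculture. FSTL4, a follistatin-like secreted protein, was at 17.8 and 17.7 CPM in EX527 co-culture and at 31 and 29.9 CPM in co-culture, against 5.41 CPM in monoculture. For FSTL4 the EX527 libraries thus lay between co-culture and monoculture. Its overlapping antisense RNA CTB-49A3.2 had 5.26 and 8.79 CPM in EX527 co-culture, 18.7 and 16.2 CPM in co-culture and 2.77 CPM in monoculture, the same order of groups, so the level of FSTL4 is uncertain. Exons on the opposite strand also overlap DUSP15, CDH23 and ZSWIM5, and those partners were under 4 CPM in every library. TTLL9, the partner of DUSP15, was at 3.11 and 1.81 CPM in EX527 co-culture, 3.48 and 3.51 CPM in co-culture and 1.41 CPM in monoculture. In co-culture and monoculture this is near the level of DUSP15 itself, which is uncertain there. ZSWIM5, a zinc finger gene, was at 27.7 and 21.8 CPM in EX527 co-culture, 15.7 and 15.1 CPM in co-culture and 7.97 CPM in monoculture. Of the 14 genes of the upper group DESeq2 called 8, and edgeR's adjusted p was 0.614 for each of the 14. These genes were picked by their difference in the same libraries, so the calls are no independent support.

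**Figure D2:**
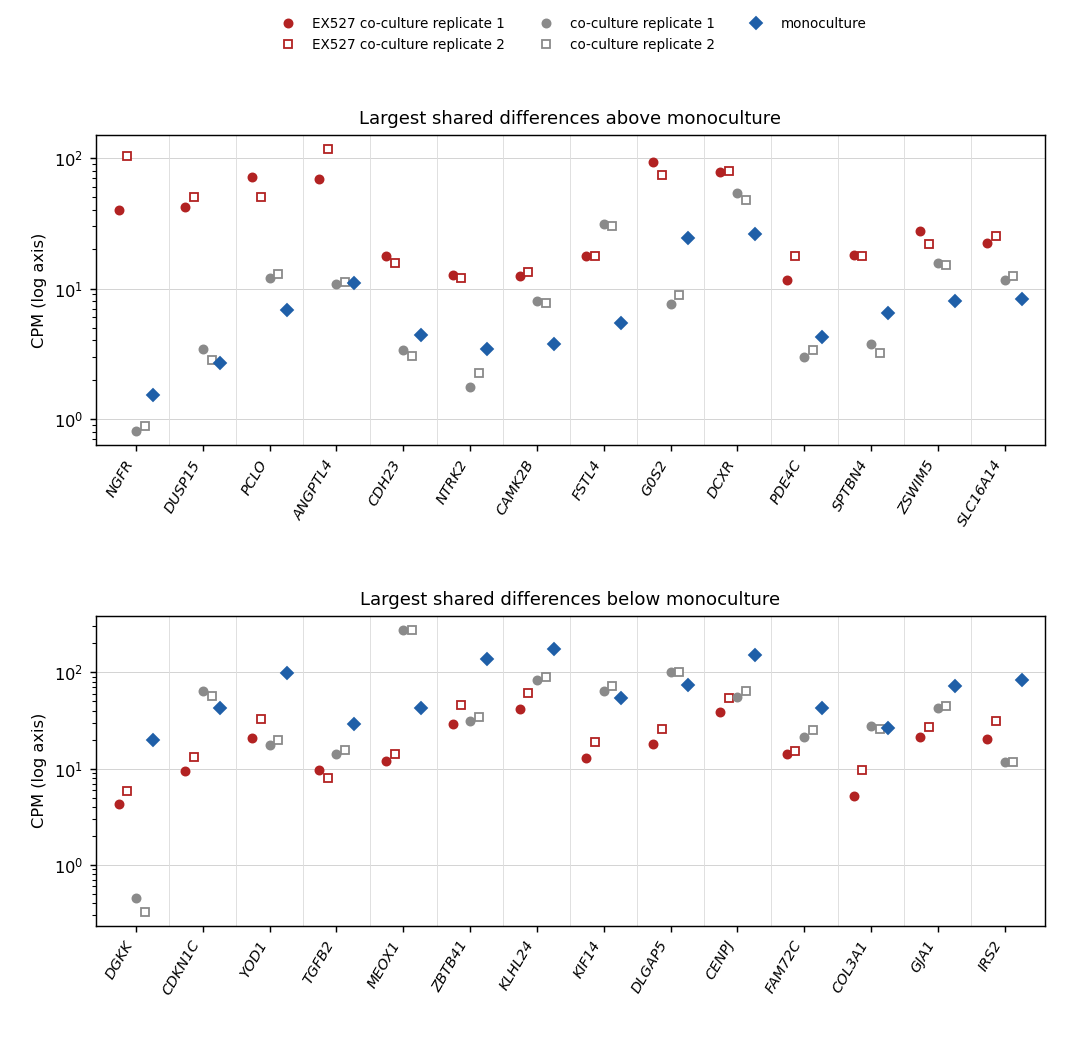
CPM of the 14 protein-coding genes with the largest shared difference above monoculture (top) and below it (bottom), on log axes, with 1 point per library for EX527 co-culture (red), co-culture (grey) and monoculture (blue). Both EX527 points lie at least 2-fold above the monoculture point in the top panel, led by NGFR at 39.8 and 103 against 1.52 CPM, and at least 2-fold below it in the bottom panel.

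Among genes lower in both EX527 libraries, several restrain growth signals or pattern tissues. CDKN1C, the imprinted cyclin-dependent kinase inhibitor p57 (GRCh38, chromosome 11, 2883213 to 2885775), stood at 9.35 and 13.2 CPM in EX527 co-culture and at 64.2 and 56.8 CPM in co-culture, against 42.6 CPM in monoculture. Its EX527 libraries were the lowest of the 5, and its log2 fold change against monoculture was -1.92 (SE 0.29, edgeR adjusted p = 0.614). TGFB2, a transforming growth factor beta ligand, was at 9.67 and 7.92 CPM in EX527 co-culture, 14.3 and 15.6 CPM in co-culture and 29.1 CPM in monoculture. MEOX1, a homeobox factor of somite development, was at 11.9 and 14.1 CPM in EX527 co-culture and at 277 and 275 CPM in co-culture, against 42.4 CPM in monoculture. MEOX1 and CDKN1C were thus lower than monoculture with EX527, while their co-culture values were above monoculture.

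Genes of signalling, matrix and cell contact were in this group as well. IRS2, an adaptor of the insulin and IGF receptors, was at 20.1 and 31 CPM in EX527 co-culture and 11.8 and 11.8 CPM in co-culture, against 83.5 CPM in monoculture. DGKK, a diacylglycerol kinase, was at 4.34 and 5.9 CPM in EX527 co-culture and 0.449 and 0.328 CPM in co-culture, against 19.7 CPM in monoculture. IRS2 and DGKK lay between co-culture and monoculture in both EX527 libraries. COL3A1, the chain of type III collagen, was at 5.17 and 9.58 CPM in EX527 co-culture, 27.7 and 25.9 CPM in co-culture and 26.3 CPM in monoculture, and GJA1, the gap junction protein connexin 43, at 21.1 and 27, 42.5 and 44.7 and 72.8 CPM. Both of these were lowest in EX527 co-culture. Noncoding RNAs overlap exons of IRS2 and TGFB2 and were under 8 CPM in every library. Among them TGFB2-OT1, on the strand of TGFB2, was at 4.48 and 1.6 CPM in EX527 co-culture and 7.93 CPM in monoculture. These values are not small beside those of TGFB2, so its level is uncertain.

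The ubiquitin pathway and the centrosome supplied further members. YOD1, a deubiquitinase, was at 20.6 and 32.4 CPM in EX527 co-culture, 17.8 and 20.01 CPM in co-culture and 97.9 CPM in monoculture, and its exons overlap PFKFB2, which was at 36.7 and 64, 48.9 and 51.2 and 142 CPM. KLHL24, a substrate adaptor of a cullin ubiquitin ligase, was at 41.2 and 60.4 CPM in EX527 co-culture, 83.3 and 89.2 CPM in co-culture and 174 CPM in monoculture. ZBTB41, a zinc finger gene, was at 29.4 and 45.6 CPM in EX527 co-culture, 31.2 and 34.1 CPM in co-culture and 137 CPM in monoculture. All 3 had their highest value in the monoculture library. CENPJ, which serves centriole growth, was at 38.7 and 53.9 CPM in EX527 co-culture, 55.1 and 63.6 CPM in co-culture and 151 CPM in monoculture. FAM72C was at 14.2 and 15.2 CPM in EX527 co-culture, 21.4 and 25 CPM in co-culture and 42.4 CPM in monoculture, an uncertain level because its family holds near-identical copies. Of the 14 genes of the lower group, picked by their difference in the same libraries, DESeq2 called 13, which is no independent support either.

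Genes of mitosis formed the list with the lowest median. Entry into mitosis is driven by cyclin B with CDK1, and a late wave of transcription supplies spindle motors, kinetochore proteins and checkpoint kinases. Of 32 genes of G2 phase and mitosis, all of which passed the filter, 31 were below monoculture in both EX527 libraries. That was 96.9%, against 27.1% of all genes tested and 44.3% of well-read genes. Of the 32, 5 were 2-fold lower in both (15.6%, against 2.19% of all genes tested and 1.35% of well-read genes). In both libraries 0 were 2-fold higher (against 9.16% and 0.349%). Their median log2 difference was -0.82, with -1.06 in replicate 1 and -0.72 in replicate 2. Over all genes tested the median was 0.12, and over well-read genes it was -0.21 (-0.37 and -0.05). In co-culture without EX527 the medians of the same list against the same monoculture library were 0.76 and 0.74.

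DLGAP5, a spindle microtubule protein, was at 18.1 and 26.1 CPM in EX527 co-culture and 101 and 101 CPM in co-culture, against 73.2 CPM in monoculture. KIF20A, a kinesin of cytokinesis, was at 12.4 and 26.8, 122 and 111 and 55.3 CPM in the same order, and KIF14, another kinesin of cytokinesis named for the size of its difference, at 13 and 18.9, 63.6 and 72.8 and 54.4 CPM. In each of these 3 genes the EX527 libraries were the lowest of the 5. CENPF, a kinetochore protein, was at 49.5 and 86.9 CPM in EX527 co-culture, 392 and 421 CPM in co-culture and 183 CPM in monoculture. TTK, the spindle checkpoint kinase MPS1, was at 24.3 and 30.2 CPM in EX527 co-culture, 76.1 and 83 CPM in co-culture and 68.9 CPM in monoculture. TOP2A, which untangles DNA before chromosomes separate, was at 151 and 150.0 CPM in EX527 co-culture, 509.5 and 545 CPM in co-culture and 324 CPM in monoculture, so that its EX527 libraries differed by less than 2 CPM.

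The drivers of entry differed by less than 2-fold. CCNB1, which encodes cyclin B1, was at 82.2 and 91.3 CPM in EX527 co-culture, 368 and 363 CPM in co-culture and 127 CPM in monoculture, and CDK1 at 62.1 and 49.4, 118 and 114 and 97.7 CPM. FOXM1, a transcription factor of mitotic genes, was the 1 member not below monoculture in both: 38.2 and 62.6 CPM in EX527 co-culture, 188 and 180.1 CPM in co-culture and 60.05 CPM in monoculture. MKI67, the proliferation marker Ki-67, was at 31.1 and 69.7 CPM in EX527 co-culture and 129 CPM in monoculture, 2-fold lower in replicate 1 only. EX527 replicate 2 lay above replicate 1 in 26 of the 32 genes.

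Genes of the G1/S transition and replication did not share that size of difference. Of 32 genes, 10 were below monoculture in both EX527 libraries (31.2%, against 27.1% of all genes tested and 44.3% of well-read genes). Above it in both were 8 (25%, against 33.7% and 18.5%), and the median of the list was -0.12 (-0.38 in replicate 1, 0.14 in replicate 2). The sign of this median turned to 0.13 with scaling by library size alone. CCND2, which encodes cyclin D2, was the 1 member 2-fold lower in both (3.12%, against 2.19% of all genes tested and 1.35% of well-read genes). It was at 35.8 and 64.7 CPM in EX527 co-culture, 17.8 and 16.5 CPM in co-culture and 136 CPM in monoculture. Its antisense RNA CCND2-AS1 overlaps it and makes the level uncertain. PCNA, the sliding clamp of DNA polymerase, was at 132 and 122 CPM in EX527 co-culture, 182 and 166 CPM in co-culture and 111 CPM in monoculture.

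Promoters of mitotic genes often carry the cell cycle homology region, read here as the letters TTTGAA on either strand. The motif was in promoters of 17 of the 26 mitosis genes that had an entry (65.4%). It was in 15.2% of all 35116 promoters of the same 300 bases, from 250 before to 50 after the start (RefSeq, GRCh38.p14). The share of a list counts genes, each by any of its entries, and the share of all promoters counts entries. Their units thus differ, here and for the motifs below. The promoter of DLGAP5 (chr14:55191536-55191835, minus strand) is shown because this gene had the largest shared difference of the list among those holding the motif, and capitals mark its 3 matches.
DLGAP5 promoter: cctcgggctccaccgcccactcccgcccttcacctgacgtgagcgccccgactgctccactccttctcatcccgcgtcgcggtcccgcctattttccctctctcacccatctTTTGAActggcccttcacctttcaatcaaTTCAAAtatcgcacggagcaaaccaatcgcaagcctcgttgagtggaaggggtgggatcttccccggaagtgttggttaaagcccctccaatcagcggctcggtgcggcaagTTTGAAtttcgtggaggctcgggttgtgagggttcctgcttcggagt
A match is a description of letters and says nothing of binding.

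Cholesterol synthesis followed in size. This pathway builds sterols from acetyl-CoA through HMG-CoA and squalene, and its genes are targets of the transcription factor SREBP2. Of 25 genes tested, 19 were below monoculture in both EX527 libraries (76%, against 27.1% of all genes tested and 44.3% of well-read genes). In both libraries 5 were 2-fold lower (20%, against 2.19% and 1.35%) and 0 were 2-fold higher (against 9.16% and 0.349%). The median was -0.69, and it was -1.02 in replicate 1 and -0.39 in replicate 2, so replicate 1 holds much of its size. Over well-read genes the median was -0.21 (-0.37 and -0.05). The co-culture medians of the list were 0.02 and -0.04.

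HMGCS1, which makes HMG-CoA, was at 94.6 and 85.2 CPM in EX527 co-culture, 143 and 148 CPM in co-culture and 207 CPM in monoculture. SQLE, which oxidises squalene, was at 52.4 and 72.5 CPM in EX527 co-culture, 76.9 and 75.8 CPM in co-culture and 154 CPM in monoculture. CYP51A1, a lanosterol demethylase, was at 67.4 and 74.8 CPM in EX527 co-culture, 80.5 and 77.9 CPM in co-culture and 159.6 CPM in monoculture. In these 3 genes the monoculture library was the highest of the 5 and the EX527 libraries were the lowest. MSMO1, the next demethylase of the chain, was at 144 and 108 CPM in EX527 co-culture and 94 and 102 CPM in co-culture, against 296 CPM in monoculture. STARD4, a cytosolic sterol carrier, was at 62.2 and 75.3 CPM in EX527 co-culture, 86.4 and 89.1 CPM in co-culture and 166 CPM in monoculture. Exons on the opposite strand overlap HMGCS1, CYP51A1 and STARD4, so their levels carry that uncertainty.

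Regulators of the pathway varied in how close both EX527 libraries were. INSIG1, which retains the SREBP complex in the endoplasmic reticulum, was at 97.3 and 105 CPM in EX527 co-culture and 209.9 CPM in monoculture. SREBF2, the gene of SREBP2, was at 93.5 and 216 CPM in EX527 co-culture, 286 and 281 CPM in co-culture and 247 CPM in monoculture. For SREBF2 replicate 1 was more than 2-fold below monoculture and replicate 2 was not. Fatty acid synthesis also depended on the library. In both libraries 13 of 17 genes tested were below monoculture (76.5%, against 27.1% of all genes tested and 44.3% of well-read genes). Of the 17, 0 were 2-fold lower in both (against 2.19% and 1.35%), and the median was -1.01 in replicate 1 and -0.19 in replicate 2. FASN, the fatty acid synthase, was at 109.6 and 419 CPM in EX527 co-culture, 1006 and 913 CPM in co-culture and 538 CPM in monoculture.

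Genes of lipid storage and of the response to low oxygen were among those higher in both libraries. ANGPTL4, a secreted inhibitor of lipoprotein lipase that fatty acids and low oxygen induce (chromosome 19, 8363289 to 8374370, GRCh38), was at 69.4 and 117 CPM in EX527 co-culture and 10.9 and 11.2 CPM in co-culture, against 11 CPM in monoculture. Both EX527 libraries stood far above the other 3, which lay within 1 CPM of each other, and the log2 fold change was 3.08 (SE 0.44, edgeR adjusted p = 0.614). G0S2, an inhibitor of adipose triglyceride lipase, was at 93.7 and 73.5 CPM in EX527 co-culture and 7.57 and 8.93 CPM in co-culture, against 24.3 CPM in monoculture. HSD11B1-AS1, whose gene spans G0S2 on the opposite strand, was at 96.8 and 75.6 CPM in EX527 co-culture and 26.4 CPM in monoculture, so the reads may be shared. HILPDA, which inhibits the same lipase under low oxygen, was at 72.4 and 101 CPM in EX527 co-culture and 16.7 and 17.8 CPM in co-culture, against 33.4 CPM in monoculture. Transcripts on its own strand overlap HILPDA, and its count is uncertain for that reason.

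Neither list lay on one side of monoculture as a whole. In the hypoxia list 2 of 26 genes were 2-fold higher in both libraries (7.69%, against 9.16% of all genes tested and 0.349% of well-read genes). Of the 26, 11 were above monoculture in both (42.3%, against 33.7% and 18.5%) and 7 below in both (26.9%, against 27.1% and 44.3%). The median was 0.20 (-0.13 in replicate 1, 0.50 in replicate 2). The co-culture medians were -0.71 and -0.62. ADM, which encodes the vasodilator adrenomedullin, was at 72 and 51.7 CPM in EX527 co-culture, 12.9 and 13.3 CPM in co-culture and 26.6 CPM in monoculture. VEGFA, the angiogenic growth factor, was at 378 and 562 CPM in EX527 co-culture, 157 and 155 CPM in co-culture and 552 CPM in monoculture. VEGFA in EX527 co-culture thus reached the monoculture level in replicate 2 and lay below it in replicate 1. In the list of lipid uptake and lipid droplets 3 of 24 genes were 2-fold higher in both (12.5%, against the same 9.16% and 0.349%), G0S2, HILPDA and the droplet coat gene PLIN2, and PLIN2 was under 2 CPM in every library. PPARG, the lipid-sensing nuclear receptor, was at 18.5 and 25.9 CPM in EX527 co-culture and 7.39 and 6.9 CPM in co-culture, against 42.7 CPM in monoculture.

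The core of the hypoxia response element, ACGTG on either strand, was in promoters of 12 of 21 genes of the hypoxia list (57.1%) and in 21.4% of all promoters. The promoter of ANGPTL4 (chr19:8363905-8364204, plus strand) holds 1 match, given in capitals as read on the opposite strand, and is shown for the size of that gene's difference.
ANGPTL4 promoter: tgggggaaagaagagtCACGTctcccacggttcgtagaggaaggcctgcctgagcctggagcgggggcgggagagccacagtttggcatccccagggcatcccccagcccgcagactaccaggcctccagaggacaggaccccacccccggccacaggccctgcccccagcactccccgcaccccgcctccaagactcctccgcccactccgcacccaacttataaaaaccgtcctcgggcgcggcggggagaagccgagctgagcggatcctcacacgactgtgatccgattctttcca
HILPDA has no entry in the table.

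In the endoplasmic reticulum the chaperone BiP stood out. Unfolded proteins there activate IRE1, PERK and ATF6, which raise chaperones and the machinery that degrades misfolded proteins. HSPA5, the gene of BiP (GRCh38, chromosome 9, 125234853 to 125241382), stood at 1825 and 2100.1 CPM in EX527 co-culture and 681 and 666 CPM in co-culture, against 5527 CPM in monoculture. The EX527 libraries lay between co-culture and monoculture, with a log2 fold change against monoculture of -1.49 (SE 0.22, edgeR adjusted p = 0.614). HSPA5 was the 1 of 23 chaperone and folding genes that was 2-fold lower in both libraries (4.35%, against 2.19% of all genes tested and 1.35% of well-read genes). Of the 23, 20 were below monoculture in both (87%, against 27.1% and 44.3%). The median was -0.55 (-0.58 in replicate 1, -0.36 in replicate 2), beside -0.21 over well-read genes (-0.37 and -0.05). All genes at a mean log2 CPM of 7 and above had medians of -0.52 and -0.23.

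DNAJB9, a co-chaperone of BiP, was at 51.9 and 43.8 CPM in EX527 co-culture, 15.2 and 13.2 CPM in co-culture and 78.5 CPM in monoculture. HSP90B1, the chaperone GRP94, was at 1382 and 1069 CPM in EX527 co-culture, 1324 and 1421 CPM in co-culture and 2017 CPM in monoculture. ERO1A, an oxidase of disulfide formation, was at 238 and 234 CPM in EX527 co-culture, 99.1 and 105 CPM in co-culture and 239.7 CPM in monoculture, so that its EX527 libraries were within 6 CPM of monoculture. Among 21 genes of degradation and stress sensing, 15 were below monoculture in both libraries (71.4%, against 27.1% of all genes tested and 44.3% of well-read genes). Their list had a median of -0.54 (-0.65 and -0.39), beside the same -0.21 over well-read genes (-0.37 and -0.05). DERL3, a membrane protein of that degradation route, whose exons overlap a gene on the opposite strand, was the 1 gene 2-fold lower in both (4.76%, against 2.19% and 1.35%). It was at 3.46 and 3.79 CPM in EX527 co-culture, 4.43 and 4.15 CPM in co-culture and 9.03 CPM in monoculture. HERPUD1, which serves the same route, was at 157 and 195 CPM in EX527 co-culture, 73 and 69.8 CPM in co-culture and 345 CPM in monoculture, and ERN1, the gene of IRE1, at 25.8 and 40.1, 14.8 and 13.8 and 60.1 CPM.

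The ATF4 stress response was closer to monoculture in replicate 2 than in replicate 1. Of 32 genes, 17 were below monoculture in both libraries (53.1%, against 27.1% of all genes tested and 44.3% of well-read genes) and 2 were 2-fold lower in both (6.25%, against 2.19% and 1.35%), and the median was -0.75 in replicate 1 and -0.05 in replicate 2. The co-culture medians were -0.74 and -0.75. SLC7A11, the cystine transporter, was at 145 and 228 CPM in EX527 co-culture, 317 and 330.0 CPM in co-culture and 504 CPM in monoculture, and CTH, which makes cysteine from cystathionine, at 4.41 and 6.04, 8.56 and 8.25 and 13.5 CPM. Both genes supply cysteine, and SLC7A11 overlaps an antisense RNA, which makes its count uncertain. DDIT3, the stress factor CHOP, was at 244 and 179 CPM in EX527 co-culture and 38.8 and 38.6 CPM in co-culture, against 225 CPM in monoculture. ATF3, another stress factor, was at 46.7 and 78.7 CPM in EX527 co-culture and 8 and 7.53 CPM in co-culture, against 81.2 CPM in monoculture. For DDIT3 and ATF3 both EX527 libraries were nearer to the monoculture value than both co-culture libraries were.

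The element that binds ATF6 in chaperone promoters was read as CCAAT and CCACG with 9 bases between them on either strand. It was in promoters of 8 of 39 genes of both endoplasmic reticulum lists (20.5%) and in 0.0769% of all promoters. The promoter of HSPA5 (chr9:125241294-125241593, minus strand) is shown as the member with the largest shared difference that holds it, with both outer parts of the element in capitals.
HSPA5 promoter: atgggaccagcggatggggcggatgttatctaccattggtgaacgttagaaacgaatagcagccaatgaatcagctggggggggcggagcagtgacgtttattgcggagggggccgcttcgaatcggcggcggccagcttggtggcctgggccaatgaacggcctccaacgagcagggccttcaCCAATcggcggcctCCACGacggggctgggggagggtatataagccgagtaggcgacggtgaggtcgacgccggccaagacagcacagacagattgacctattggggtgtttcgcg
The element lies from 66 to 48 bases before the start. The C/EBP-ATF element TGATGNAA was in promoters of 8 of 28 genes of the ATF4 list (28.6%) and in 3.62% of all promoters. CTH is not among the holders, and SLC7A11 has no entry in the table.

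**Figure D3:**
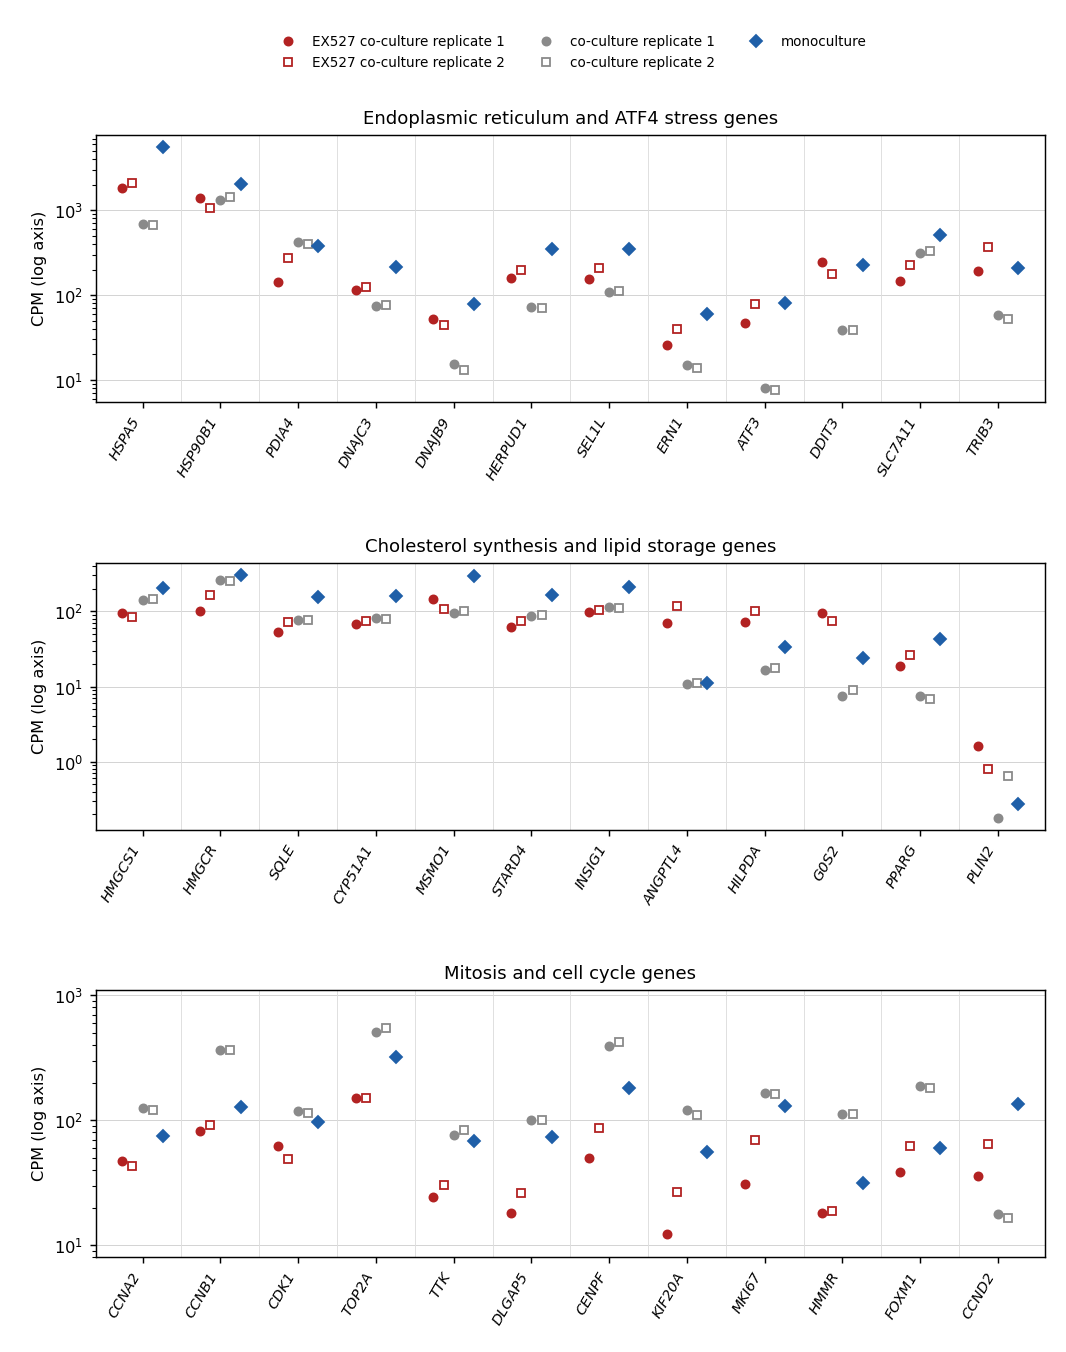
CPM on log axes of 12 genes each of endoplasmic reticulum and ATF4 stress (top), of cholesterol synthesis and lipid storage (middle) and of mitosis and the cell cycle (bottom), with 1 point per library for EX527 co-culture (red), co-culture (grey) and monoculture (blue). In the bottom panel the EX527 points of DLGAP5, at 18.1 and 26.1 CPM, lie below the monoculture point at 73.2 CPM, and in the top panel those of HSPA5 lie between the other groups.

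Epithelial identity genes showed the difference between both EX527 libraries. Of 27 genes, 13 were below monoculture in both (48.1%, against 27.1% of all genes tested and 44.3% of well-read genes, so near the latter share). Above it in both were 3 (11.1%, against 33.7% and 18.5%). The median was -0.72 in replicate 1 and -0.05 in replicate 2, beside 0.62 in each co-culture library. KRT8, a keratin of simple epithelia, was at 331 and 604 CPM in EX527 co-culture, 2673 and 2286 CPM in co-culture and 628 CPM in monoculture, and KRT18, its partner, at 226 and 288, 1193 and 1066 and 299 CPM. The EX527 values of both keratins were near or below monoculture and far below co-culture, and processed pseudogenes of keratins make these counts uncertain. CD24, a surface glycoprotein, was the 1 gene 2-fold lower in both libraries (3.70%, against 2.19% of all genes tested and 1.35% of well-read genes), at 21 and 26.9 CPM in EX527 co-culture, 43.1 and 41.2 CPM in co-culture and 66.3 CPM in monoculture. CDH1, which encodes E-cadherin, was at 90.2 and 178 CPM in EX527 co-culture, 243 and 249 CPM in co-culture and 199.6 CPM in monoculture.

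The 13 subunits encoded by the mitochondrial genome gave the largest gap between the medians of both EX527 libraries among the 33 lists. Their median was -1.0 in replicate 1 and 0.23 in replicate 2, beside 1.26 and 1.25 in co-culture. Of the 13, 0 were 2-fold higher in both EX527 libraries (against 9.16% of all genes tested and 0.349% of well-read genes). Likewise 0 were 2-fold lower in both (against 2.19% and 1.35%). COX1, a catalytic subunit of cytochrome oxidase, was at 4020.0 and 9736 CPM in EX527 co-culture, 23668 and 24250.1 CPM in co-culture and 8044 CPM in monoculture. Nuclear copies of the mitochondrial genome make these counts uncertain. The nuclear subunits of the respiratory chain had a median of 0.08, with 0.02 and -0.02 in the single libraries.

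**Figure D4:**
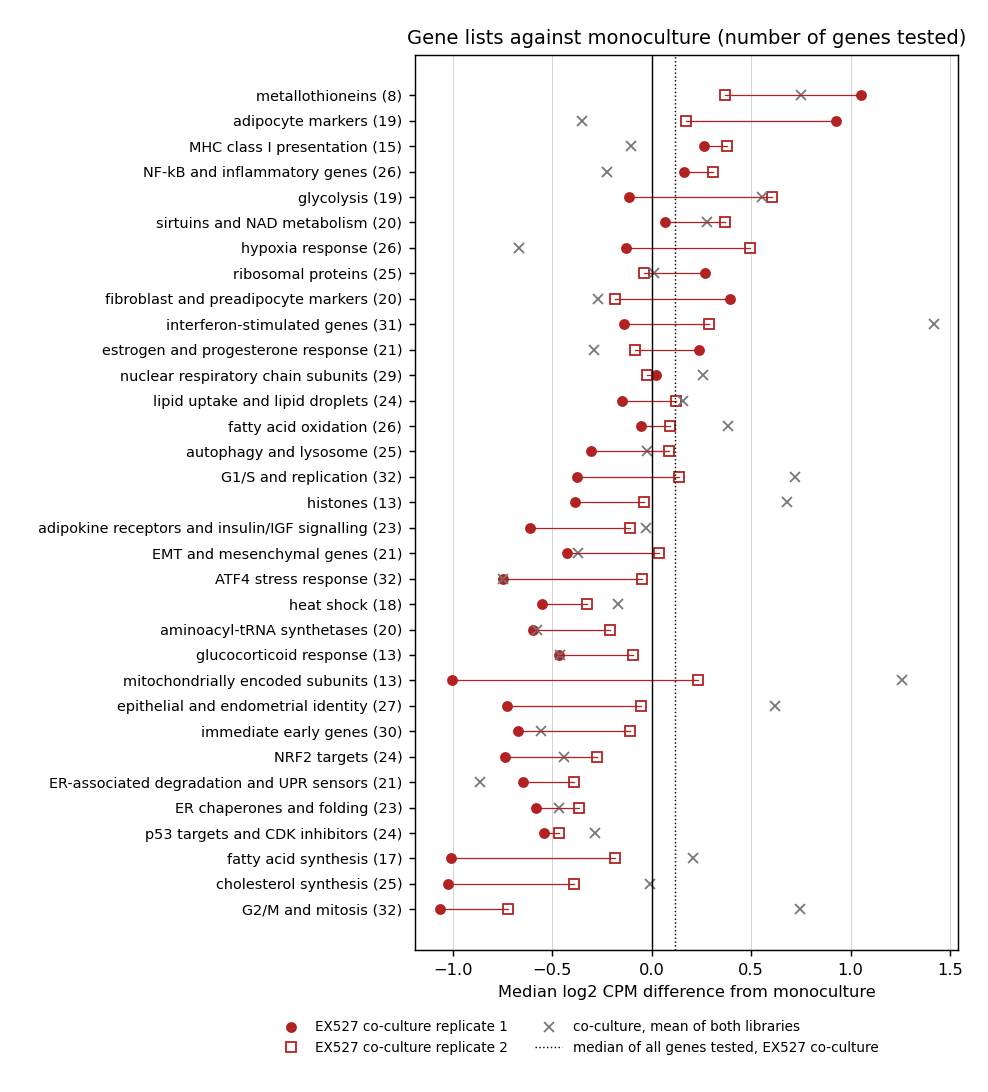
Median log2 CPM difference from monoculture of 33 gene lists, with the number of genes tested in brackets, in EX527 co-culture replicate 1 (filled circles) and replicate 2 (open squares), beside the mean of both co-culture medians (crosses). The list of mitosis genes is lowest at -1.06 and -0.72, and the dotted line is the median of all genes tested at 0.12. The median over well-read genes, at -0.21, is not drawn.

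Other stress and metabolic lists held few shared members. Of 24 NRF2 targets 16 were below monoculture in both libraries (66.7%, against 27.1% of all genes tested and 44.3% of well-read genes) and 2 were 2-fold lower in both (8.33%, against 2.19% and 1.35%), SLC7A11 and GCLM, a subunit of the enzyme that starts glutathione synthesis. GCLM was at 54.7 and 53.7 CPM in EX527 co-culture, 47.5 and 47.7 CPM in co-culture and 126 CPM in monoculture. AKR1B10, an aldo-keto reductase, had 20 and 3 reads in EX527 co-culture and 0 in the other 3 libraries. It passed the filter through EX527 replicate 1 alone, replicate 2 lay at the floor, and no fold is given. MT3, a metallothionein that binds zinc and copper, was at 7.87 and 7.41 CPM in EX527 co-culture, 4.7 and 3.61 CPM in co-culture and 1.57 CPM in monoculture. DNAJB4, a heat shock co-chaperone, was at 34.6 and 32.9 CPM in EX527 co-culture, 22.2 and 23.5 CPM in co-culture and 90.5 CPM in monoculture, and GIPC2 overlaps it on the same strand. Among 24 p53 targets and inhibitors of cyclin-dependent kinases, 16 were below monoculture in both (66.7%, against 27.1% of all genes tested and 44.3% of well-read genes). The median of this list was -0.55, beside -0.21 over well-read genes. CDKN1C was the 1 gene past 2-fold in both (4.17% lower, against 2.19% and 1.35%). CDKN1A, the inhibitor p21, was at 238 and 521 CPM in EX527 co-culture, 286 and 278 CPM in co-culture and 269.6 CPM in monoculture.

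Glycolysis differed between both EX527 libraries. Of 19 genes 7 were above monoculture in both EX527 libraries (36.8%, against 33.7% of all genes tested and 18.5% of well-read genes). Below it in both were 3 (15.8%, against 27.1% and 44.3%). In both libraries 0 were 2-fold higher (against 9.16% and 0.349%) and 0 were 2-fold lower (against 2.19% and 1.35%). The median was -0.12 in replicate 1 and 0.61 in replicate 2. LDHA, which turns pyruvate into lactate, was at 1118 and 958 CPM in EX527 co-culture, 1063 and 1125 CPM in co-culture and 584 CPM in monoculture. GAPDH, of the middle of the pathway, was at 3256 and 4538 CPM in EX527 co-culture, 5635 and 5404 CPM in co-culture and 2155 CPM in monoculture. Both genes were higher in all 4 libraries with adipocytes than in monoculture, and pseudogenes make their counts uncertain.

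Interferon and inflammatory genes past 2-fold in both libraries were near the floor. Of 31 interferon-stimulated genes 3 were 2-fold higher in both (9.68%, against 9.16% of all genes tested), OAS1, OAS2 and IFIH1, which sense double-stranded RNA, and each was under 1 CPM in every library. OAS1 and OAS2 had fewer than 10 reads in each library other than EX527 replicate 1 and passed the filter through that library. The list's median was -0.14 in EX527 replicate 1 and 0.29 in replicate 2, beside 1.44 and 1.39 in co-culture. Of 26 NF-kB and inflammatory genes 4 were 2-fold higher in both (15.4%, against 9.16% of all genes tested and 19% of those with a mean log2 CPM under 0), IL1B, IL6, CXCL2 and CXCL3, which encode cytokines and chemokines. IL6 had fewer than 10 reads in every co-culture and monoculture library. CXCL3 was the best read of these, at 1.98 and 1.55 CPM in EX527 co-culture, 0.225 and 0.41 CPM in co-culture and 0.277 CPM in monoculture.

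Some adipocyte markers, among them ADIPOQ, CIDEA, ADRB3 and FABP4, were read at low levels in every library. This did not hold for the summed levels of the marker lists, which are given below. Of 20 adipocyte markers 19 passed the filter and 3 were 2-fold higher in both EX527 libraries (15.8%, against 9.16% of all genes tested and 19% of those with a mean log2 CPM under 0), ADIPOQ, CIDEA and ADRB3, while PCK1 was opposite. These 3 genes had fewer than 10 reads in every co-culture and monoculture library and so passed the filter through EX527 co-culture alone, ADRB3 with 34 and 3 reads there. ADIPOQ, the adipokine adiponectin, was at 0.9 and 0.255 CPM in EX527 co-culture, 0.0899 and 0.0205 CPM in co-culture and 0.023 CPM in monoculture, and CIDEA, a lipid droplet protein, at 2.19 and 0.234, 0.0674 and 0.0616 and 0.0922 CPM. For both, replicate 1 held the highest value. The summed level of the list was 96.1 and 107 CPM in EX527 co-culture, 52.9 and 53.1 CPM in co-culture and 142 CPM in monoculture, so monoculture, which had no adipocytes, held the highest sum. The sum thus includes members read in the cancer cells themselves and is no measure of adipocyte RNA in any library. FABP4, a fatty acid carrier of adipocytes, was at 0.6 and 0.0426 CPM in EX527 co-culture, 0.18 and 0.0821 CPM in co-culture and 0.0461 CPM in monoculture. Of 20 fibroblast and preadipocyte markers 0 were 2-fold higher in both (against 9.16% of all genes tested). COL3A1 was 2-fold lower in both (5%, against 2.19%), and DCN and POSTN were opposite (2 of 20, against 3.23% of all genes tested). The summed level of that list was 244 and 475 CPM in EX527 co-culture, 394 and 367 CPM in co-culture and 436 CPM in monoculture. The part of adipocyte or fibroblast RNA in the other differences was not tested.

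Genes on which both EX527 libraries disagreed included well-read ones. LRP1B, a large lipoprotein receptor, was at 41.7 and 7.75 CPM in EX527 co-culture, 6.79 and 7.96 CPM in co-culture and 16.5 CPM in monoculture, and ERBB4, a receptor of neuregulins, at 37.9 and 10.7, 10.5 and 11.8 and 18.5 CPM. TTYH3, a tweety family membrane protein, went the opposite way at 61.2 and 317 CPM in EX527 co-culture, 248 and 228 CPM in co-culture and 124 CPM in monoculture, and SLC6A6, the taurine transporter, at 32.7 and 109, 90.4 and 91.1 and 59.9 CPM. In these genes replicate 2 lay on the side of monoculture on which both co-culture libraries lay, and replicate 1 on the other. The same held for ADGRB3, CAPN12, LSM3, TINAGL1 and DCHS1, and BCAN went the other way. BCAN was at 4.13 and 15.1 CPM in EX527 co-culture, 7.51 and 6.28 CPM in co-culture and 8.09 CPM in monoculture, and overlapping antisense RNAs make its level uncertain. Among well-read genes 2-fold lower in both libraries, replicate 1 was the further from monoculture in 156 of 186, and among those 2-fold higher in both it was in 22 of 48.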

How the data were processed

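The authors deposited raw counts per gene for the 5 poly(A)-selected libraries (57992 genes), and a normalized table not used here. Per the series' design text, STAR v2 aligned the reads to GRCh38.p7. The submitters' processing notes also name featureCounts, DESeq2, fastp, MultiQC and FastQC. Annotation and strand setting: not given in the sources used here.

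After filterByExpr at a minimum count of 10 and TMM scaling, counts went into edgeR 4.0.16 under R 4.3.3 (quasi-likelihood F-test, 1 coefficient per group over 5 libraries, 2 residual degrees of freedom, Benjamini-Hochberg adjustment, threshold 0.05). Fold changes run EX527 co-culture minus monoculture. Single-library differences used log2 CPM with a prior count of 2. A gene counted as higher or lower when both EX527 libraries were at least 2-fold from monoculture. DESeq2 1.42.0 and limma 3.58.1 were alternatives, as were other scalings, prior counts, filters and left-out libraries. A chi-square test of both EX527 libraries averaged 151.73 per gene (31265 genes), far over sampling noise, and they counted as 2 samples. Scripts were tested on simulated data. Planted fold changes were checked at the common dispersion without EX527 replicate 1, and recovery at the dispersion of all 5 libraries is not reported here.

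The genes named were SIRT1, the 14 protein-coding genes per direction with the largest smaller-of-both difference at a mean log2 CPM of at least 3, up to 4 members of each list past 2-fold in both libraries, and 5 genes per direction of opposite sign. Other list members are named to describe their list. The members and the 33 lists, which hold 730 genes that all matched, were chosen with earlier results of these data known. Positions come from GENCODE and promoters from RefSeq.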

Additional observations from a re-analysis of the deposited data

How the results depend on the processing

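No paired analysis was possible because the monoculture library carries no replicate number, so the groups compared share fewer than 2 numbers. The count of genes called stayed 0 under median-of-ratios scaling, library size alone, no filter, the 3 libraries of the comparison alone, the older dispersion estimate, limma-voom and without either co-culture library. It was 75 with DESeq2's Wald test, and from 9927 to 21330 when 1 EX527 library was left out. Those 2 fits assume that single libraries vary like the co-culture pair, whose common dispersion was 0.00434 or 0.0045 against 0.264 with all 5.

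The count of genes higher in both EX527 libraries (3174) became 908 with a prior count of 10, 643 at 4-fold and 48 at a mean log2 CPM of at least 3, a limit chosen after seeing the data. With 1 EX527 library it was 4365 to 10888. The count of lower genes (758) became 468 with library size alone, 413 with a prior count of 10, 2133 with no filter, 77 at 4-fold and 186 at that later limit, and 2674 to 4796 with 1 EX527 library. Library size alone moved the median of all genes to 0.36 from 0.12, and the split of higher against lower genes to 4095 and 468 from 3174 and 758. It turned the medians of G1/S genes (-0.12) to 0.13, autophagy genes (-0.10) to 0.15, fatty acid oxidation genes (-0.10) to 0.15 and lipid droplet genes (-0.01) to 0.24.

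Genes on which both EX527 libraries disagreed changed sign when 1 was left out. Their fitted log2 fold changes ran from -1.13 to 1.34 for LRP1B, -0.83 to 0.80 for ADGRB3, -0.83 to 1.04 for ERBB4, -1.08 to 0.69 for CAPN12, -0.80 to 0.65 for LSM3, -1.05 to 1.06 for TINAGL1, -1.02 to 1.32 for TTYH3, -0.97 to 0.86 for BCAN, -0.88 to 1.01 for DCHS1 and -0.87 to 0.82 for SLC6A6. With limma-voom, CAPN12 was at -0.16, LSM3 at -0.045, TINAGL1 at -0.021, BCAN at -0.079 and SLC6A6 at -0.013. The cause was not tested. Of the other fold changes of named genes under these alternatives, 688 kept their direction and stayed short of the threshold, and 159 kept their direction and passed it, each without 1 EX527 library or with DESeq2. Depth limits genes near the floor of 3 reads, whose counts past 2-fold rest on few reads, and the single monoculture library limits every difference.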

Other observations

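Well-read genes outside the lists were looked at after their values were seen, and are given as values. Further mitotic genes were 2-fold lower in both EX527 libraries. ASPM, a spindle pole protein, was at 39.7 and 63.3 CPM in EX527 co-culture, 179 and 198 CPM in co-culture and 141 CPM in monoculture. KNL1, a kinetochore scaffold, was at 30.6 and 38.6, 86.4 and 88.1 and 84.5 CPM in the same order, and NEK2, a centrosomal kinase, at 24.1 and 25, 72.6 and 75.9 and 52.9 CPM. In all 3 the EX527 libraries were the lowest of the 5. KIF5C, a kinesin of neuronal transport, was at 26.6 and 28.2 CPM in EX527 co-culture and 4.38 and 5.17 CPM in co-culture, against 61.8 CPM in monoculture, and so lay between both other groups.

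Among genes 2-fold higher in both EX527 libraries, UPP1, the uridine phosphorylase, was at 93.4 and 124 CPM in EX527 co-culture and 14.5 and 13.6 CPM in co-culture, against 44.7 CPM in monoculture. TERT, the catalytic subunit of telomerase, was at 7.82 and 20.5 CPM in EX527 co-culture, 11.6 and 9.48 CPM in co-culture and 3.76 CPM in monoculture. EPHA3, an ephrin receptor, was at 25.9 and 32.5 CPM in EX527 co-culture, 8.07 and 8.91 CPM in co-culture and 12.4 CPM in monoculture. UPP1 and EPHA3 were highest in EX527 co-culture, and TERT was highest in its replicate 2.

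Genes that were lower in both EX527 libraries differed in number with the length of the gene. Well-read protein-coding genes were put in 4 equal bins by genomic span, from shortest to longest. In these bins 18, 38, 66 and 46 were 2-fold lower in both and 10, 9, 6 and 15 were 2-fold higher in both. The median difference of replicate 2 was 0.16, -0.0044, -0.17 and -0.24 over these bins, and that of replicate 1 was -0.25, -0.40, -0.50 and -0.40. Each bin holds 2917 or 2918 genes with a known span.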
